A study of Mus musculus with 4 samples.

Results

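Cytosolic ribosomal protein genes encode the protein subunits of the ribosome that translates nuclear-encoded messages, and their positions were examined in a SOX2 ChIP-seq experiment on mouse cortex. The members were all protein-coding RefSeq genes whose symbol starts with Rpl or Rps and a digit, together with Rplp0, Rplp1, Rplp2 and Rpsa and without the kinase genes starting Rps6k. This gave 91 of 21900 protein-coding genes, 56 named for the large subunit and 35 for the small subunit. The symbol rule also takes in genes that are not core subunits, such as the retrogene copies Rpl37rt and Rps27rt, the paralogs Rpl3l and Rpl10l, and Rps19bp1, which encodes a protein that binds a ribosomal protein. ChIP-seq sequences the DNA that comes down with an antibody to a chromatin protein, and a peak is a place where such DNA piles up over unselected chromatin, the input.

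There were 3 immunoprecipitated (IP) libraries, made with a rabbit antibody to SOX2, and 1 input library, and all 4 were labelled as cortex of male C57BL/6 mice at 2 months of age. The protocol calls the tissue wild type, whereas 1 label tag lists SOX2 as transduced for every library, even the input, and that tag was not used. No library was labelled as injured or as lacking SOX2, and the labels do not tie the IP libraries to different animals, so their spread may be technical. The cortex mixes neurons, glia and vessel cells, and the cell type that gave the tags of a peak cannot be told.

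Ribosomal protein genes are transcribed in every cell type at high and coordinated rates from short promoters with a precisely placed start, and their messages carry a pyrimidine-rich tract at the very beginning through which mTOR signalling controls their translation. Known regulators of these promoters in mammalian cells include the ETS factor GABP, SP1 and YY1. SOX2 is a transcription factor of neural stem cells and astrocytes that recognises short sites with the core ACAAT, read as ATTGT on the other strand.

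The 3 IP libraries held 32492927 to 41875666 tags, which are sequenced reads placed on the genome, and 15891 to 17730 peaks called by the authors on the mm10 build. A peak's strength is its number of normalized tags, which the authors scaled to 10000000 tags a library. Peaks that overlapped between libraries were merged, and a region with peaks of all 3 libraries is called reproducible; there were 9334 such regions among 27083. As a check of the pull-down, the gene Sox2 carried a reproducible region at a gene end with 8.53, 12.3 and 9.55 normalized tags in IP libraries 1, 2 and 3. Of marker genes fixed for the cortex, 6 of 6 for astrocytes, 2 of 5 for neurons, 3 of 5 for oligodendrocytes, 1 of 4 for microglia and 2 of 3 for endothelial cells were the nearest gene of a reproducible region, against 22.3% of all protein-coding genes, which does not measure their expression. Such a region lay at a gene end of 1 astrocyte marker, 1 microglia marker and 0 markers of the other lists.

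The promoters that carried the strongest regions are shown first, because the peaks described below lie on them. Each sequence is the RefSeq window on GRCm38.p6, the assembly of mm10, from 250 bases before the annotated start to 50 bases from it, written along the gene's strand, so that transcription starts at base 251. In Rpl7a this start lies downstream of the start of the RefSeq gene span, and in the other 6 it is the same base. Capitals mark matches to any of 13 motifs on either strand. These were the SOX core ACAAT, its longer form AACAAT, the SOX variant ACAAAG, the ETS letters CCGGAA, the YY1 letters AAGATGGC, the SP letters GGGCGG, the TATA box TATAAA, the E-box CACGTG, the CRE TGACGTCA, the NFY letters CCAAT, the palindrome CTCGCGAG, and 1 longer consensus each for NRF1 and ZNF143, neither of which occurs below. AACAAT and the ZNF143 consensus both contain the SOX core, and the palindrome was added after the promoters printed here had been looked at. Rps19 is on the plus strand at chr7:24884342-24884641, Rps7 on the minus strand at chr12:28635904-28636203, Rpl26 on the plus strand at chr11:68901316-68901615, Rpl12 on the plus strand at chr2:32961462-32961761, Rpl15 on the minus strand at chr14:18270937-18271236 and Rpl7a on the plus strand at chr2:26910557-26910856. Rpsa, on the plus strand at chr9:120127516-120127815, is shown as a member with no peak within 50 kb in any library.
Rps19: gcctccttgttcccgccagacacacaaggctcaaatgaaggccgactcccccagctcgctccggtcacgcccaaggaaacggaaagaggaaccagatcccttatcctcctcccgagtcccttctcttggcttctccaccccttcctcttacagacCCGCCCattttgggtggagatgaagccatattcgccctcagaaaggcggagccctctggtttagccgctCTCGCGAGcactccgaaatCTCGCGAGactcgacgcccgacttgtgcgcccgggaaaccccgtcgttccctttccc
Rps7: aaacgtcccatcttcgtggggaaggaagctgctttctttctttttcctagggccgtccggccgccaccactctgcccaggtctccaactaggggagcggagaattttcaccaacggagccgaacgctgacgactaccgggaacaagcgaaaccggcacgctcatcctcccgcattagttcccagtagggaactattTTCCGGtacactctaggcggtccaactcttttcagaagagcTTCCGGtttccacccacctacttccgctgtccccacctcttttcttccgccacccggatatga
Rpl26: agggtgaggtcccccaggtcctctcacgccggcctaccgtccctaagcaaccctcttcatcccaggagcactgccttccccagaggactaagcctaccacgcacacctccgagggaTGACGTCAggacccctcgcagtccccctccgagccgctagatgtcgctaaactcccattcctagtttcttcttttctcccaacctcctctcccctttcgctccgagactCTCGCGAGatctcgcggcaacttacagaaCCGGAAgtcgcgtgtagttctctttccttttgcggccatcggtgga
Rpl12: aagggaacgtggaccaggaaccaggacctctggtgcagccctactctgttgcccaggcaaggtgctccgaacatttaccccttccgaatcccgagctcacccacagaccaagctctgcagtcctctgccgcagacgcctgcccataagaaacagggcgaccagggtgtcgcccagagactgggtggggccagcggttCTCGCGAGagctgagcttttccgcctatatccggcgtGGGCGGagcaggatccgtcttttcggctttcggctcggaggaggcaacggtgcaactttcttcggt
Rpl15: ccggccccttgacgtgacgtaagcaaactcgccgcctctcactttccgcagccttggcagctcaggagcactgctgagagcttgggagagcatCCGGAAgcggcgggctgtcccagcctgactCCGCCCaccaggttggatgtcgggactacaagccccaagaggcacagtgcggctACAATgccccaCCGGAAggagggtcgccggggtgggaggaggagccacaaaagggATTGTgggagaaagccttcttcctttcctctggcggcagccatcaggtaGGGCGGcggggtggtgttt
Rpl7a: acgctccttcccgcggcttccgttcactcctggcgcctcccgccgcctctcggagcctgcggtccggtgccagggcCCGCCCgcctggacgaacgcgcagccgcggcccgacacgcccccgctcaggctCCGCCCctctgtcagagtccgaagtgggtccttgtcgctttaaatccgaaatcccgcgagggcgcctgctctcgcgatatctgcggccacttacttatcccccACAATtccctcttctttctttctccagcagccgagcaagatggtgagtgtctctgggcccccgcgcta
Rpsa: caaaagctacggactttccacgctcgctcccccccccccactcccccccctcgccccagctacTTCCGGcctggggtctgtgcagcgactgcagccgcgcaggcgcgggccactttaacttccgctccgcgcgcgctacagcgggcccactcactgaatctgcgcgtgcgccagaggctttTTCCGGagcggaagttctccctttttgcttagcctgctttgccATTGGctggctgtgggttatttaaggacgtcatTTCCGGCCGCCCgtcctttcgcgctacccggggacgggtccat

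The bases common to the peaks of all 3 libraries ran from base 174 to the end of the printed window in Rps19 and from base 212 to its end in Rps7. In Rpl26 they covered bases 125 to 270, in Rpl12 bases 119 to 250, in Rpl15 bases 107 to 238 and in Rpl7a bases 119 to 231. The stretch common to the libraries therefore reached or crossed the annotated start in Rps19, Rps7 and Rpl26 and ended just before it in Rpl12, Rpl15 and Rpl7a. Of the 3 sets of SOX letters, only the core ACAAT was found in these 6 windows. It lay in Rpl15 at bases 178 to 182 and 233 to 237, both within the common stretch, and in Rpl7a at bases 233 to 237, just outside it. Rps19, Rps7, Rpl26 and Rpl12, which include the 3 strongest members, held no match to the SOX letters in the window, which says nothing of other SOX2 sites.

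The first comparison asked how often the IP was enriched over the input at the ends of these genes. Of the 91 ribosomal protein genes, 24 (26.4%) had a reproducible region with its centre within 1 kb of a gene end, against 9.6% of all protein-coding genes. A further 13 had gene-end peaks in exactly 2 libraries, against 5.84% of all genes, and 20 in exactly 1 library, against 10.4%. The remaining 34 had no gene-end peak in any library. In all, 57 members (62.6%) had such a peak in at least 1 library, against 25.8% of all genes. Of all genes whose span fell within the members' range of 374 to 16779 bp, 8.71% had a reproducible gene-end region.

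The excess was present in each library. In IP library 1, 43 of 91 members (47.3%) had a gene-end peak against 18.3% of all genes, in IP library 2 it was 44 (48.4%) against 18.4%, and in IP library 3 it was 32 (35.2%) against 15.7%. The members' share averaged 43.6 ± 7.32% and that of all genes 17.5 ± 1.55% (SD, n = 3 libraries). The difference, members minus all genes, was 26.1 ± 5.77 percentage points, and this spread between libraries may be technical. IP library 3 gave the lowest share and the smallest difference. The 3 libraries were called against the same input and form 1 group, and no exact test over 3 libraries can give a p below 0.25, so none was made.

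Other gene groups of protein synthesis and cell housekeeping, chosen by their function, held gene-end regions at 20% to 45% of their genes. Mitochondrial ribosomal proteins, the subunits of the separate ribosome of mitochondria, had reproducible gene-end regions at 20 of 78 genes (25.6%), and oxidative phosphorylation genes, which encode the respiratory chain and ATP synthase, at 20 of 88 (22.7%). Cytosolic initiation and elongation factors had them at 15 of 71 (21.1%), ribosome assembly factors at 8 of 32 (25%) and proteasome subunits at 8 of 40 (20%). Genes that control ribosomal protein synthesis, such as mTOR pathway genes and the promoter factors named above, had them at 9 of 20 (45%). The 26.4% of the ribosomal protein genes lay within the range of these lists, and the differences between lists were not tested. The strongest of the other groups were Atp5pb, an ATP synthase subunit, with 37.7, 42.8 and 34.4 normalized tags in IP libraries 1, 2 and 3, the proteasome subunit Psmd5 with 26.1, 36.3 and 27.5, and Eif4a3, an RNA helicase of the exon junction complex, with 24.2, 28.9 and 19.1.

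**Figure D1:**
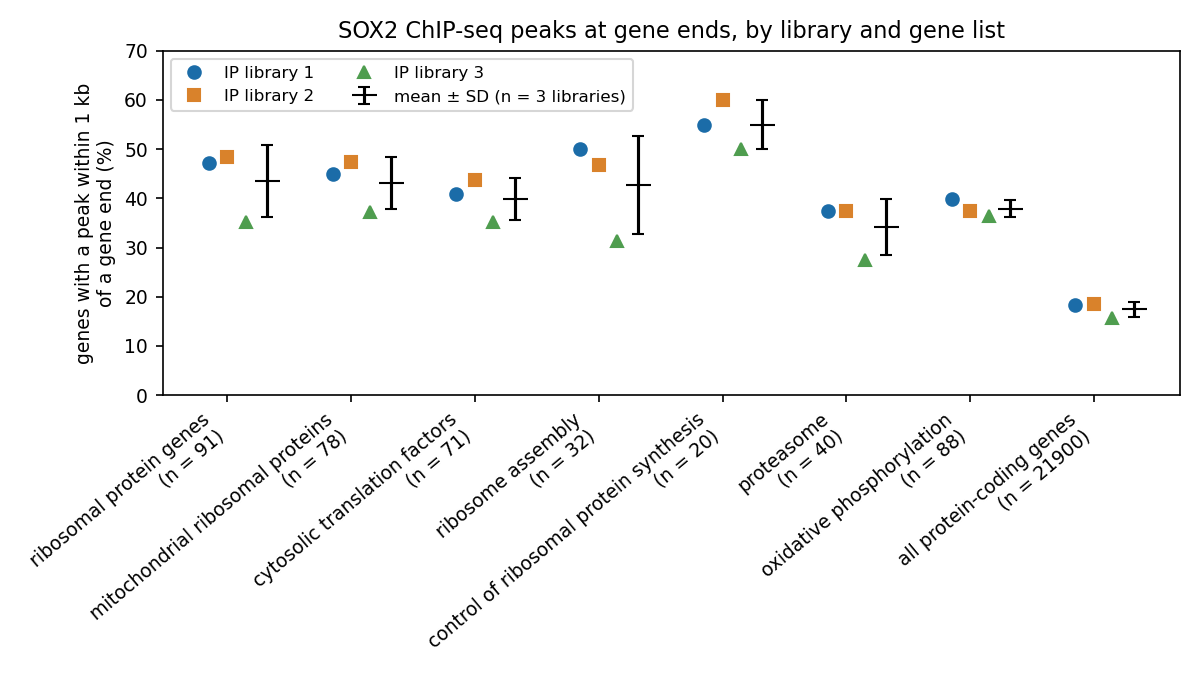
Share of genes with a SOX2 peak within 1 kb of a gene end in percent (vertical axis) for ribosomal protein genes, 6 other gene lists and all protein-coding genes (horizontal axis). Coloured symbols are the 3 IP libraries and black bars their mean ± SD; ribosomal protein genes lie at 35.2% to 48.4%, below the 50% to 60% of the list for control of ribosomal protein synthesis and above the 15.7% to 18.4% of all genes.

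Small-subunit members had reproducible gene-end regions at 10 of 35 genes (28.6%) and large-subunit members at 14 of 56 (25%). The median strength, taking each gene's strongest such region, was 12.3 normalized tags for small-subunit members and 7.10 for large-subunit members. Neither difference was tested. A set of 11 members was set apart by symbol as not core subunits, among them Rpl3l, Rpl10l, Rpl37rt and Rps27rt, although a few further symbols that mark copies were not in it. None of these 11 had a reproducible gene-end region, against 9.6% of all protein-coding genes. A gene-end peak in any library was found in 3 of them (27.3%), against 25.8% of all genes. These were Rpl7l1, Rpl36al and Rps19bp1, each with a peak in 1 library. With 11 genes, neither difference from all genes was tested. Without these 11, 24 of 80 members (30%) had a reproducible gene-end region.

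Among small-subunit genes, Rps19, mutated in human Diamond-Blackfan anaemia, was the strongest of all members. Its region had 31.9, 33.2 and 26.0 normalized tags in IP libraries 1, 2 and 3, from 116, 108 and 109 tags, and 105-fold, 109-fold and 42.9-fold enrichment over the input, which held 1, 1 and 2 tags there. The centre of that region lay 5 bp upstream of the annotated start. A second region of Rps19, centred 426 bp upstream, had 16.5, 14.2 and 10.3 normalized tags. Rps7, whose product can bind the p53 regulator MDM2, had 27.2, 34.5 and 23.2 normalized tags at a region centred 16 bp downstream of the start. The value of Rps7 in IP library 2 stood above that in IP library 3 by more than counting error, since their exact 95% Poisson intervals, of 28.4 to 41.5 and 18.8 to 28.3, do not overlap.

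A second tier of small-subunit genes held 11.3 to 13.4 normalized tags on average. Rps3a1 had 12.1, 16.3 and 11.9 normalized tags in IP libraries 1, 2 and 3, and Rps15a had 14.9, 13.5 and 11.5. Rps6, the subunit phosphorylated by the S6 kinases of the mTOR pathway, had 10.5, 14.5 and 14.8, so that here IP library 3 was the highest. Rps28 had 12.7, 11.1 and 10.0, at a region that also lies 37 bp from an end of Ndufa7, a subunit gene of respiratory complex I. Rps21 followed with 7.43, 8.00 and 7.40, Rps18 with 6.88, 8.62 and 5.25, and Rps9 with 5.23, 6.46 and 6.45. In Rps21 the 3 libraries were almost equal, and in Rps18 the spread was within counting error. Rpsa, the subunit also known as the laminin receptor, had no peak within 50 kb in any library.

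Among large-subunit genes, Rpl26, whose product binds p53 messenger RNA in human cells, was the strongest with 20.6, 19.4 and 21.3 normalized tags, centred 50.5 bp upstream of the start. Rpl12, part of the base of the ribosomal stalk, had 17.1, 18.2 and 16.7, and Rpl15 had 16.2, 14.8 and 14.1. Rpl7a had 16.2, 16 and 12.7 and Rpl10a 16.5, 14.5 and 9.79. The values of Rpl26, Rpl12 and Rpl15 differed little between libraries, with SDs of 0.961, 0.777 and 1.07 around means of 20.4, 17.3 and 15.0, while those of Rpl10a were lower in IP library 3. Rpl23a, which lies near the exit of the peptide tunnel, had 12.9, 11.1 and 5.73 normalized tags from 47, 36 and 24 tags. Its value in IP library 3 was below that in IP library 1 by more than counting error, with exact 95% Poisson intervals of 3.67 to 8.53 and 9.51 to 17.2.

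The remaining large-subunit genes with a reproducible gene-end region were weaker. Rpl27a, the gene changed in the mouse mutant Sooty foot ataxia, averaged 7.21 ± 1.68 normalized tags (SD, n = 3), and Rpl24, the gene of the mouse mutant Belly spot and tail, averaged 5.60 ± 1.43. Rpl36 had a region of 6.997 ± 1.07 outside the gene and a further one of 5.19 ± 1.69 inside it. Rpl29, Rpl7, Rpl28 and Rpl10, whose product is among the last to join the large subunit, averaged 4.72 to 6.59 normalized tags. Of the stalk proteins, Rplp2 had 6.61, 4.31 and 5.49 normalized tags at a reproducible region 66 bp upstream of its start. Rplp0, which anchors the stalk, had a gene-end peak in IP library 2 alone, with 4.31 normalized tags, and Rplp1 had none.

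**Figure D2:**
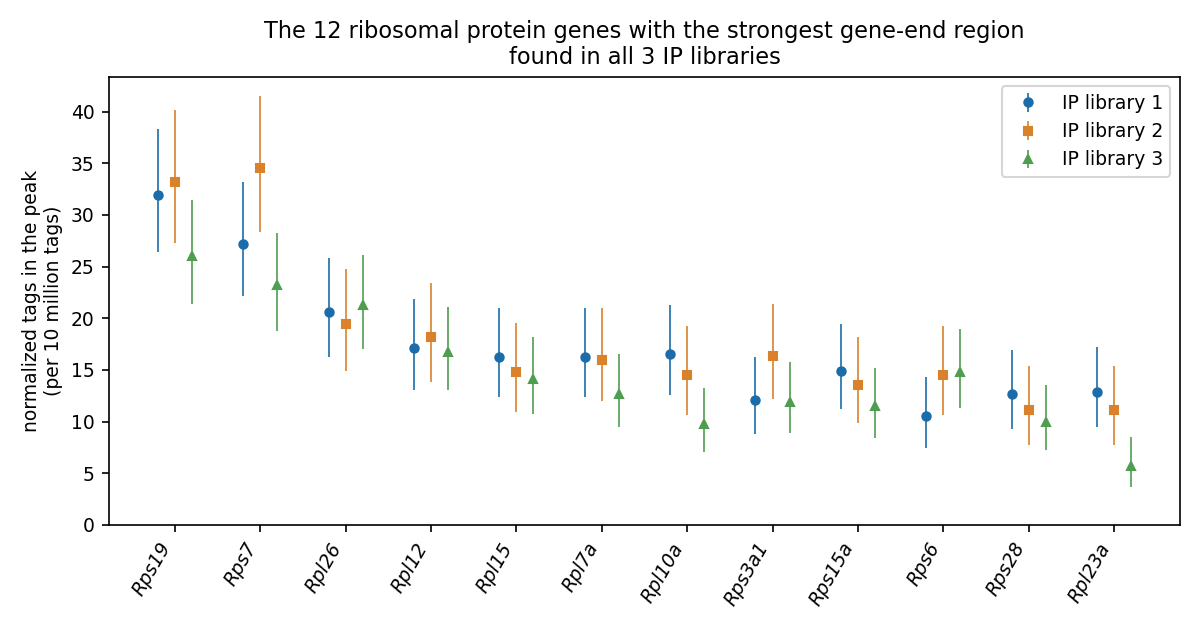
Normalized tags (vertical axis, scaled to 10000000 tags a library) of the reproducible gene-end region of the 12 ribosomal protein genes with the strongest (horizontal axis, ordered by mean), with a symbol for each IP library and bars for exact 95% Poisson intervals of the tag count. Rps19, Rps7 and Rpl26 stand highest, and most bars of a gene overlap.

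Over the 26 reproducible gene-end regions of the members, the median of the regions' mean strength was 9.28 normalized tags (interquartile range 6.18 to 13.6), against 7.15 (5.76 to 9.70) over the 1847 reproducible gene-end regions of all protein-coding genes. The median was 9.79, 10.7 and 8.00 in IP libraries 1, 2 and 3 for the members' regions, and 7.43, 7.69 and 6.45 for all gene-end regions. Of the members' regions, 11 of 26 (42.3%) had a mean rank in the top 10% of their libraries' peaks, against 12.4% of all gene-end regions. The authors' folds over the input had medians of 17.98, 15.9 and 12.7 in the members' regions and 13.3, 13.7 and 10.6 in all gene-end regions. These medians are descriptions without a test.

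In most members' regions the counting intervals of the 3 libraries overlapped. In 24 of the 26 regions the exact 95% Poisson intervals of the 3 libraries shared a common value, the exceptions being those of Rps7 and Rpl23a, and a region rested on 14 to 116 tags in a library. These intervals cover counting error only, and a shared value does not show that the libraries were equal. The libraries were not compared directly, and the same count over all reproducible regions was not made. IP library 3 was the lowest of the libraries in 17 of 26 regions (65.4%), against 60.1% of all reproducible regions.

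The regions sat on the start of the genes and not on the other end. A strand was given for 70 of the 91 members in the RefSeq promoter table, and the start is the matching end of the gene span. Of these 70 members, 19 (27.1%) had a reproducible region within 1 kb of the start, against 9.12% of the 17492 genes with a strand, and 0 had one within 1 kb of the finish, against 1.12%. The centres of the 20 regions lay 449.5 bp upstream to 62.5 bp downstream of the start, with a median distance of 52.8 bp in either direction. Of them, 17 (85%) were within 100 bp of the start, against 49.4% of the 1626 pairs of a gene and a region at its start over all genes. The 3 farther ones were the second region of Rps19 and those of Rpl10 and Rps21. The span end matched the annotated start of the promoter window in 17 of these 19 members, but in 10583 of the 17492 genes. Elsewhere the distance was taken from a span end that is not that start, and the difference in spread was not tested.

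**Figure D3:**
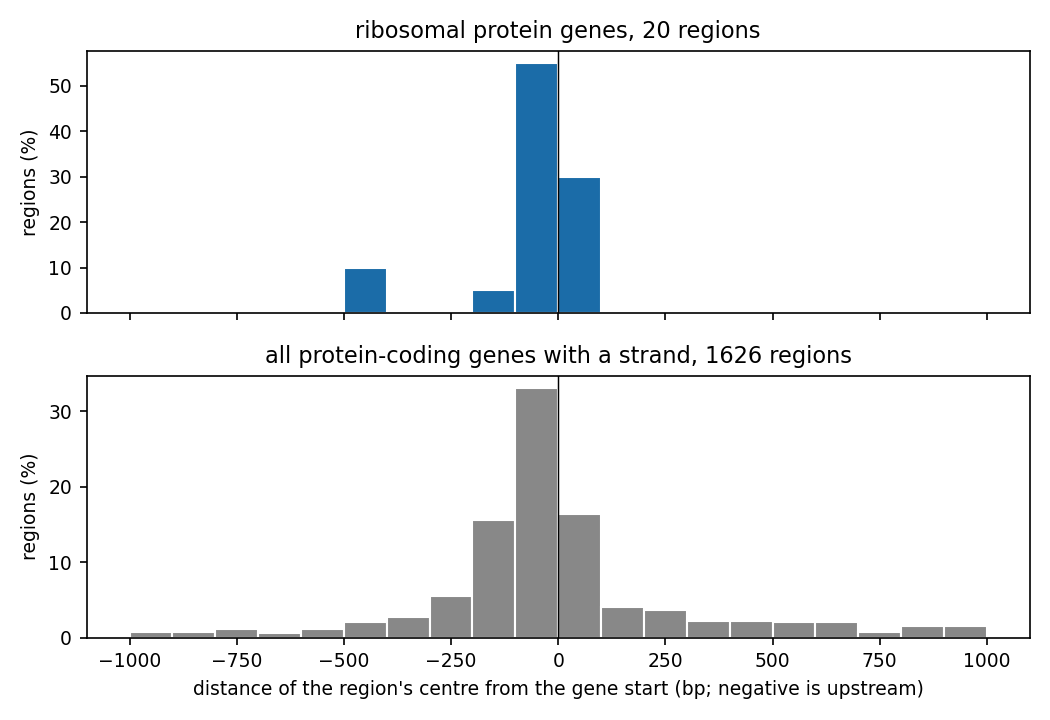
Percent of reproducible regions (vertical axes) by distance of the centre from the gene start in bp (the matching end of the gene span; horizontal axis, 100 bp bins, negative is upstream), for ribosomal protein genes (top) and all protein-coding genes with a strand (bottom). The 20 regions of ribosomal protein genes lie between 449.5 bp upstream and 62.5 bp downstream, while the 1626 of all genes reach 1 kb on either side. The span end is the annotated start in 17 of the 19 members with a region and in 10583 of the 17492 genes.

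A position at a gene end does not tie a region to that gene alone. Of the 26 regions, 8 also lay within 1 kb of an end of another protein-coding gene. How many gene-end regions of all genes are shared in this way was not counted. In 5 of the 8 the other gene was the nearer one: Rpl12 shared its region with Lrsam1, Rpl15 with Nkiras1, Rps18 with Vps52, Rplp2 with Pidd1 and Rpl36, in its outer region, with Micos13. Lrsam1 encodes a ubiquitin ligase, Vps52 a part of a vesicle tethering complex and Micos13 a protein of the mitochondrial inner membrane. The regions of Rpl7a and Rps28 and the inner region of Rpl36 lay nearer to the ribosomal protein gene than to Med22, a Mediator subunit gene, Ndufa7 and Lonp1, a mitochondrial protease gene. When a region counted only for its nearest gene, 20 members (22.0%) kept a reproducible gene-end region, against 8.06% of all genes.

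Members' peaks that were found in 1 library were more often close to the authors' filter of 4-fold enrichment over the input than those of reproducible regions, as the counts under 5-fold show, with no test made. The 24 gene-end regions of members found in 1 library had a median of 4.92 normalized tags and 5.28-fold enrichment, and 11 of these 24 peaks (45.8%) were under 5-fold. Over all protein-coding genes, 19.9% of gene-end peaks found in 1 library were under 5-fold, with a median of 7.60-fold. In the reproducible regions, 4 of 78 peaks of members (5.13%) were under 5-fold, against 6.28% over all genes. Rps12, with 8.81 normalized tags and 4.14-fold enrichment in IP library 1, and Rps15, with 8.93 and 4.90-fold in IP library 2, were found in no other library although they held more tags than several reproducible regions. Rpl13a had 9.91 normalized tags at 5.44-fold in IP library 1 and 7.39 at 4.05-fold in IP library 2. Rpl11, whose product binds MDM2, had 6.33 normalized tags at 4.17-fold in IP library 1 and 7.08 at 4.66-fold in IP library 2. Others lay farther from the filter. Rpl38 had 7.71 normalized tags at 12.7-fold and Rps20 had 6.33 at 10.4-fold, each in IP library 1 alone. Rpl32 had 45.3-fold in IP library 1 and 33.0-fold in IP library 3, where the input was at 0.5 tags. Whether the input filter removed peaks of these genes from the other libraries was not tested. The filter removed 15.5%, 14.8% and 22.8% of putative peaks in IP libraries 1, 2 and 3.

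**Figure D4:**
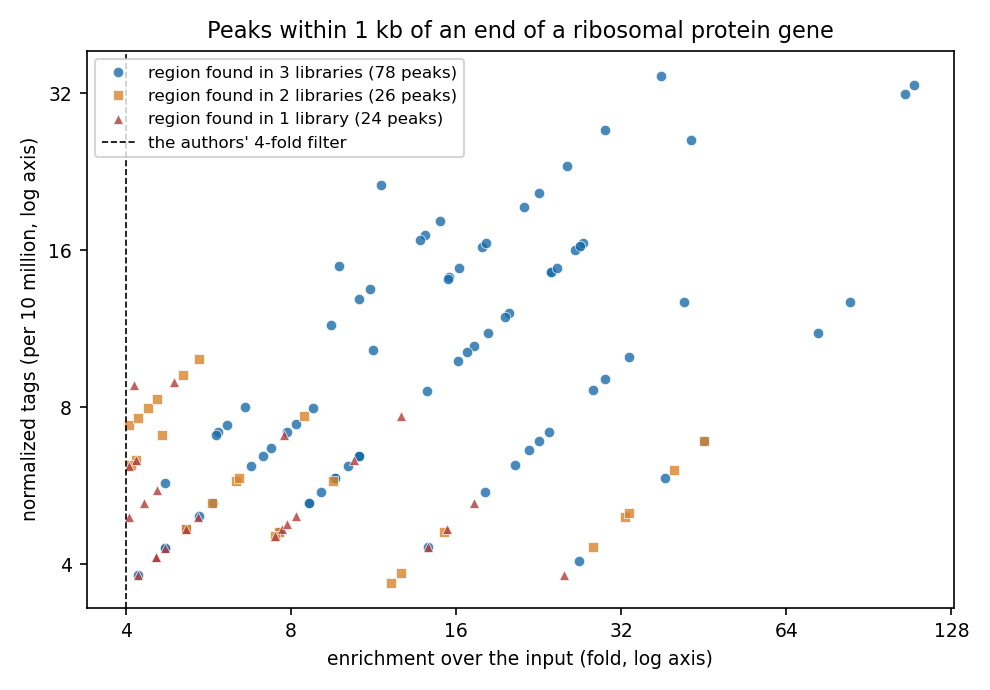
Normalized tags (vertical axis, log scale) against enrichment over the input in fold (horizontal axis, log scale) for each peak within 1 kb of an end of a ribosomal protein gene, coloured by the number of IP libraries in which its region was found. The dashed line is the authors' 4-fold filter; 11 of the 24 peaks found in 1 library lie between it and 5-fold, against 4 of the 78 peaks of reproducible regions.

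The 1 kb limit for gene ends took in the reproducible region of Rpl29 at 0.528 kb and the inner region of Rpl36 at 0.847 kb. Rpl29 was lost with a limit of 0.5 kb. A region inside Rpl17, at 1.48 kb from its end, was outside the limit.

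Beyond gene ends, most regions in reach of a ribosomal protein gene lay nearer to another gene. Within 50 kb, 55 of 91 members (60.4%) had a reproducible region, against 46% of all protein-coding genes, and 29 (31.9%) were the nearest gene of one, against 22.3%. The members had a median of 4 other protein-coding genes within 50 kb (interquartile range 2 to 5), against 3 (1 to 4) for all genes. Apart from the 26 gene-end regions there were 57 reproducible regions within reach. For 47 of these another gene was nearer, and 22 (38.6%) lay within 1 kb of an end of another gene. These 2 shares were not computed for protein-coding genes in general, so they cannot be called particular to the members. Their median strength was 7.51 normalized tags, against 9.28 at the members' ends and 7.63 over all reproducible regions.

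The strongest of these 57 regions lay 44.3 kb from Rpl29 and 8.91 kb from Dusp7, a phosphatase of ERK kinases, with 30.6, 34.2 and 22.0 normalized tags in IP libraries 1, 2 and 3. A region 10.9 kb from Rpl6 lay inside Hectd4 with 15.7, 22.8 and 18.6, and 1 at 11.9 kb from Rps16 lay on an end of Supt5, a transcription elongation factor gene, with 17.9, 22.5 and 13.4. In each of these 3 cases the ribosomal protein gene was over 10 kb away, with another gene nearer.

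In 10 of the 57 regions a ribosomal protein gene was the nearest. Rpl37a had the strongest at 26.0 kb outside the gene, with 20.6, 18.2 and 16.7 normalized tags. Rplp1 had 2 of them, with 16.8, 17.9 and 15.8 at 40.7 kb and 6.06, 8.62 and 4.06 at 23.2 kb. Rpl11 had 13.8, 17.9 and 10.0 at 41.7 kb, and the closest end of any other gene was that of Id3, an inhibitor of basic helix-loop-helix factors. Nearer to their gene were the regions of Rps24, with 11.8, 13.2 and 12.7 at 3.77 kb, of Rps14, with 11.3, 11.4 and 6.93 at 4.57 kb, and of Rpl15, with 5.51, 8.93 and 8.36 at 4.31 kb. The region inside Rpl17 had 8.26, 10.8 and 10.0, and that of Rpl34 had 6.88, 10.8 and 6.45 at 27.9 kb. Rplp1, Rpl37a, Rps24 and Rpl17 thus had a reproducible region in reach although no peak lay at their ends.

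Fau and Rack1, which act in the ribosome under other symbols, had no reproducible gene-end region. Fau, which encodes a ribosomal protein fused to a ubiquitin-like protein, had a gene-end peak in IP library 2 alone, with 4.31 normalized tags. Rack1, a scaffold protein on the small subunit, had 2 gene-end regions with peaks of 2 libraries each.

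The composition of the 300-base promoter windows was compared between members with and without peaks, as a description. The 19 members with a reproducible region and an entry had a median G and C content of 59.7%, against 54.3% in the 29 without a gene-end peak and 56.3% over the 17492 promoters of all genes. The SOX core ACAAT was found in 5 of the 19 (26.3%), in 6 of the 29 (20.7%) and in 28.4% of all promoters, so matches to it were no more common in the members with a region than in promoters in general. The 5 were Rpl15, Rpl7a, Rpl10a, Rps3a1 and Rps9. The ETS letters were found in 33 of the 70 members with an entry (47.1%), against 19.1% of all promoters, and in 10 of the 19 members with a region (52.6%) and 14 of the 29 without (48.3%). The TATA box was found in 1 of the 19 (5.26%) and in 7 of the 29 (24.1%), against 13.3% of all promoters. The 29 included 8 of the 11 members set apart above as not core subunits, and the 19 included none. Of that set, Rpl22l1 and Rpl32l were among the 7 with a TATA box, as was Rpl31-ps12, whose symbol also marks a copy. The shares were not recounted without such members.

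A palindrome seen in the sequences above differed in share between members with and without a region. It was chosen after these promoters had been seen, so its count in them is a description. The letters CTCGCGAG were found in 6 of the 19 members with a reproducible region (31.6%), namely Rps19, Rpl26, Rpl12, Rps6, Rps28 and Rpl27a. They were in 0 of the 22 members with peaks in 1 or 2 libraries and 0 of the 29 without a gene-end peak, and in 1.31% of all promoters. In Rps19 they occur at bases 225 to 232 and 244 to 251 of the printed window, in Rpl26 at bases 226 to 233 and in Rpl12 at bases 198 to 205, in each case within the stretch common to the peaks of all 3 libraries. Among genes outside the ribosomal protein genes, the palindrome was in 105 of 1577 promoters with a reproducible region at the start (6.66%) and in 70 of 12850 without a gene-end peak (0.545%). Of all 229 promoters with the palindrome, 111 (48.5%) had a reproducible region within 1 kb of the start, against 9.12% of all genes with a strand and 8.65% of the 4969 promoters with the SOX core. The palindrome contains CpG, a C followed by a G, and CpG counts differed too. Their median per window was 22 in other genes with a reproducible region and 8 in those without a gene-end peak. In members it was 21 with a reproducible region, 23 with peaks in 1 or 2 libraries and 16 without. Whether the palindrome's shares differ beyond CpG content was not tested. As background, a CGCG palindrome of this kind is known as a recognition sequence of the factor BANP at CpG island promoters; BANP was not measured here.

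**Figure D5:**
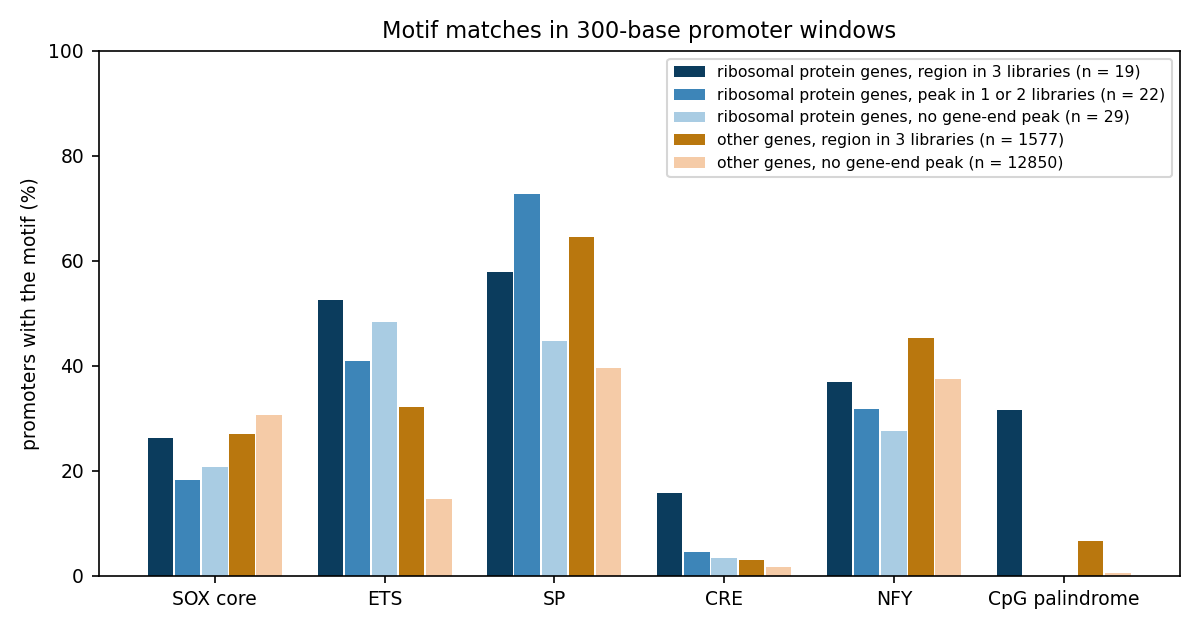
Percent of 300-base promoter windows that hold a match (vertical axis) for 6 motifs (horizontal axis), in ribosomal protein genes (blue) and other genes (brown) with and without SOX2 peaks at their ends. The CpG palindrome is in 31.6% and 6.66% of the promoters with a reproducible region and in 0% and 0.545% of those without a gene-end peak, while the SOX core is at 26.3% and 26.9% against 20.7% and 30.6%.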

How the data were processed

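SOX2 ChIP-seq peaks of 3 IP libraries, each called against 1 input, were used as deposited. Per the submitters' processing notes, Bowtie 1.0.0, HOMER 4.7 and mm10 were used. Each library's peaks come from findPeaks in factor mode, per the file headers, with filters of 4-fold over the input, 4-fold over the local 10 kb, a deposited p-value limit of 0.0001 and an FDR of 0.001. The normalized tag signal of each peak was scaled by the authors to 10000000 tags. Total tags were deposited as a count in IP library 2 and as scaled values in the others, so tag counts were recomputed from the signal and the library total. The fold is the authors' ratio to the input (at least 0.5 tags), the score their capped tag number, and the focus ratio their deposited fraction of tags placed as the centre predicts.

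Peaks overlapping by 1 bp or more were merged in chains. Gene spans came from RefSeq GRCm38.p6, and strands from its promoter table. Where a gene had several promoter windows, the one closest to its span end was used. Exact 95% Poisson intervals of tag counts cover counting error only. Alternatives changed the overlap, the libraries required, the fold and score limits, the distances and the libraries and genes included. The counting was tested on simulated data with planted peaks. Where reads from processed pseudogene copies were placed was not given in the sources used here. Python 3.11.15, numpy 2.4.6, pandas 2.3.3 and scipy 1.17.1 were used. The members, lists and settings were chosen with earlier results of these data known. Named genes were the 15 members with the strongest reproducible gene-end region, the 8 with the strongest other region nearest to them, Rplp0, Rplp1, Rplp2, Rpsa, Fau, Rack1 and Sox2, up to 3 per other list, and neighbours; further members were named after their values were seen. Some genes are not reported here.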

Additional observations from a re-analysis of the deposited data

How the results depend on the processing

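The counts are limited by depth, since the authors' FDR threshold was 13 to 16 tags, and by the single input. Some peaks had fewer tags by the recomputed counts, such as 12 at the end of Rpl23 in IP library 2. No paired analysis was possible because the IP libraries form 1 group and the input is 1 library. Of the 24 members with a reproducible gene-end region, 21 remained when an overlap had to cover 0.5 of each peak (Rpl28, Rpl7 and Rplp2 were lost), 16 with a minimum of 8-fold over the input and 17 with the stronger 0.5 of peaks. The share of members stayed 2.48 to 3.46 times that of all genes under every setting here that bears on gene ends. With peaks of at least 2 libraries, 37 members had a gene-end region (40.7%, against 15.4% of all genes), with a median strength of 6.997 normalized tags, and 87 other regions lay in reach. With at least 8-fold enrichment the median strength was 13.4, the other regions numbered 33 and the mean share per library was 27.8%. With the stronger 0.5 of peaks the median was 13.3 and the share 29.3%, and with 0.5 overlap the median was 11.3. Counting only nearest genes left 29 members with a region in reach and 10 other regions, and a reach of 10 kb left 33 and 10. Leaving out 1 library (Rpl7 was lost without IP library 1) gave 25 to 33 members with a gene-end region, 19 to 25 at the start, 58 to 63 in reach, 60 to 69 other regions, a median strength of 7.715 to 8.195 and a mean share of 41.2% to 47.8%. The setting for gene ends of 2 kb gave 27 members and that of 0.5 kb gave 23.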

Other observations

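Processed copies of ribosomal protein genes elsewhere in the genome were counted beside pseudogenes in general, without a test. Of 310 pseudogenes with a ribosomal protein symbol, 1 (0.323%), Rpl31-ps20, had a reproducible region inside it or within 1 kb of an end, against 62 of 9955 pseudogenes (0.623%), and 5 (1.61%) had a peak in any library, against 148 (1.49%).

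Among the other motifs of the promoter windows, the CRE was found in 5 of 70 members (7.14%), 3 of them among the 19 with a reproducible region, against 2.33% of all promoters. The YY1 letters were found in 6 of 70 members (8.57%), against 3.21% of all promoters. Of the 6, 1, Rps15a, had a reproducible region, and over all genes 101 of 561 promoters with these letters (18%) had one at the start. Over all genes, the ZNF143 letters were in 77 promoters, of which 21 (27.3%) had a reproducible region at the start, and the NRF1 letters in 233, of which 48 (20.6%) had one.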
